A study of Mus musculus with 8 samples.

Results

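Nuclear receptors are transcription factors that mostly act when a small lipid-soluble ligand, such as a steroid, a thyroid hormone, a retinoid, a bile acid or a fatty acid, binds them. The 44 receptor genes described here were found by their gene names among the probes of a mouse expression array, and 40 of them were among the 23540 genes that could be tested. Together they carried 71 probes, of which 61 were kept. The receptors were picked by family and not by a threshold on a measured value.

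In liver, these receptors set the synthesis and export of bile acids, the burning and storage of fat, the handling of foreign compounds, the daily rhythm of metabolism and the response to glucocorticoids at birth. Many bind DNA as a pair with a retinoid X receptor (RXR). Coactivators and corepressors that dock on the bound receptor raise or lower transcription of the target genes.

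RNA came from pieces of the large liver lobe of newborn C57BL/6J mice, taken by caesarean on embryonic day E19.5 and kept warm for 4 h before sampling. The knockout (KO) pups, 4 arrays, had inherited from their mother a chromosome without the miR-379/miR-410 cluster of microRNAs. The wild-type (WT) pups, 4 arrays, were littermates. Each sample was labelled with Cy3 and hybridised to 1 Agilent array, and the submitters describe the 4 samples of a genotype as biological replicates.

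The cluster is made from the maternal chromosome. RefSeq's table for GRCm38.p6 places 36 microRNA hairpins from Mir379 to Mir410 on chromosome 12, with 67 mature microRNAs and 60 different seeds. The microRNAs that name its ends are printed because their loss is what separates the genotypes. Capitals mark the seed, bases 2 to 8, which pairs with target RNAs.
mmu-miR-379-5p: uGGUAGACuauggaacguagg
mmu-miR-410-3p: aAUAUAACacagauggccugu

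Levels are log2 of the processed signal minus the 75th percentile of that array, so 0 is the signal at that percentile. Levels of different probes are not set against each other. Mirg, a noncoding RNA that hosts microRNAs of the cluster, stood at -0.20, -0.31, -0.91 and -0.73 on the KO arrays and at 2.11, 2.24, 2.15 and 2.14 on the WT arrays. Its difference was -2.70 (SE 0.15, limma adjusted p = 0.000327). The share of spots well above background ran from 58.6% to 66.2% across arrays. All 8 arrays lay on 1 slide in 1 scan, with KO arrays in 1 slide column and WT arrays in the other, so column and genotype cannot be told apart.

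Each array was set against a weighted sum of the other 3 arrays of its genotype, and replicate 4 left the smallest residual in both groups. For KO 4, with weights of 0.15, 0.25 and 0.60 on KO 1, 2 and 3, the residual SD across genes was 0.199, against 0.249 to 0.311 for the other KO arrays. For WT 4, with weights of 0.07, 0.35 and 0.58 on WT 1, 2 and 3, it was 0.260, against 0.278 to 0.411 for the other WT arrays, so WT 4 was only a little below WT 3. The p-values from 8 arrays count replicate 4 as a separate sample. For the receptors with an unadjusted p under 0.05, for the called genes and for several genes nearest the threshold, values are therefore also given with the 6 arrays that exclude replicate 4. Xist, made from the inactive X of females, was well above background on 3 KO arrays and on 0 WT arrays. Ddx3y, a Y-linked gene, was well above background on 2 KO arrays and on 3 WT arrays. KO 4 carried both and WT 3 neither, and the sexes are not balanced between the genotypes. Replicate 4 lay between the other arrays of its group for these genes. Xist stood at -0.14 in KO 4 and at 1.72, 1.52 and -6.80 in KO 1, 2 and 3. Ddx3y stood at 1.39 in WT 4 and at 2.21, 2.21 and -7.67 in WT 1, 2 and 3. Whether replicate 4 is independent of the other arrays was not tested. Hepatocyte markers were bright, with all 7 of 7 kept and log2 summed levels of 12.25 to 12.30 on KO arrays and 12.13 to 12.39 on WT arrays.

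Most of the family had a probe with signal in the newborn liver. A probe of 36 of the 44 receptors was well above background on all 8 arrays, whereas 62.5% of 34741 gene names on the array had such a probe. For 4 receptors this held on some arrays only. Rorb, a retinoic acid receptor-related orphan receptor known from brain and retina, was well above background on 3 KO and 2 WT arrays. Nr3c2, the mineralocorticoid receptor, reached this on 3 KO and 4 WT arrays, Nr6a1, the germ cell nuclear factor, on 3 KO and 3 WT arrays, and Nr0b2, the small heterodimer partner SHP, on 2 KO and 4 WT arrays. These counts use the best probe of each gene, and probes of the same gene could disagree. For Esrrb the probes were well above background on 8 and on 0 arrays, and for Rxrg on 8 and on 6. Rarb and Esr1 each also had a probe with 0 such arrays. Whether each probe reports its gene was not tested.

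No array showed signal well above background for Hnf4g, a relative of Hnf4a, for Nr0b1, the adrenal and gonadal corepressor DAX1, for Nr4a3, or for Pgr, the progesterone receptor, which had 3 probes. Their levels were bounded by background and were not compared. The 19 receptors with more than 1 kept probe are represented by the brightest one, and in 6 of them the kept probes differed in sign.

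None of the 40 receptors passed the test between genotypes. In bulk tissue, fewer cells of a type and less RNA per cell cannot be told apart. The number called was 0 at a limma adjusted p under 0.05, where 0.217% of all genes were called, 0.178% lower and 0.0382% higher in KO livers. At an unadjusted limma p under 0.05 there were 7 receptors, 6 with lower and 1 with a higher mean in KO livers, or 17.5% of the 40 against 13.3% of all genes. The groups did not overlap for 3 receptors, 2 lower and 1 higher in KO livers, against 9.05% of all genes, 4.33% lower and 4.72% higher. The mean was lower in KO livers for 24 receptors, while this held for 43.5% of all genes, and the median difference was -0.06 over the receptors and 0.03 over all genes.

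With 6 arrays the number called was again 0, with 6 of all genes (0.0255%) called. Only 1 receptor, Nr0b2, then had an unadjusted limma p under 0.05, or 2.5% of the 40 against 7.33% of all genes. The groups did not overlap for 3 receptors there too, against 13.5% of all genes. The 95% interval of a receptor's difference reached 0.29 to either side in the median, and 0.26 over all genes. Differences smaller than this could not be told from 0 for a typical receptor.

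**Figure D1:**
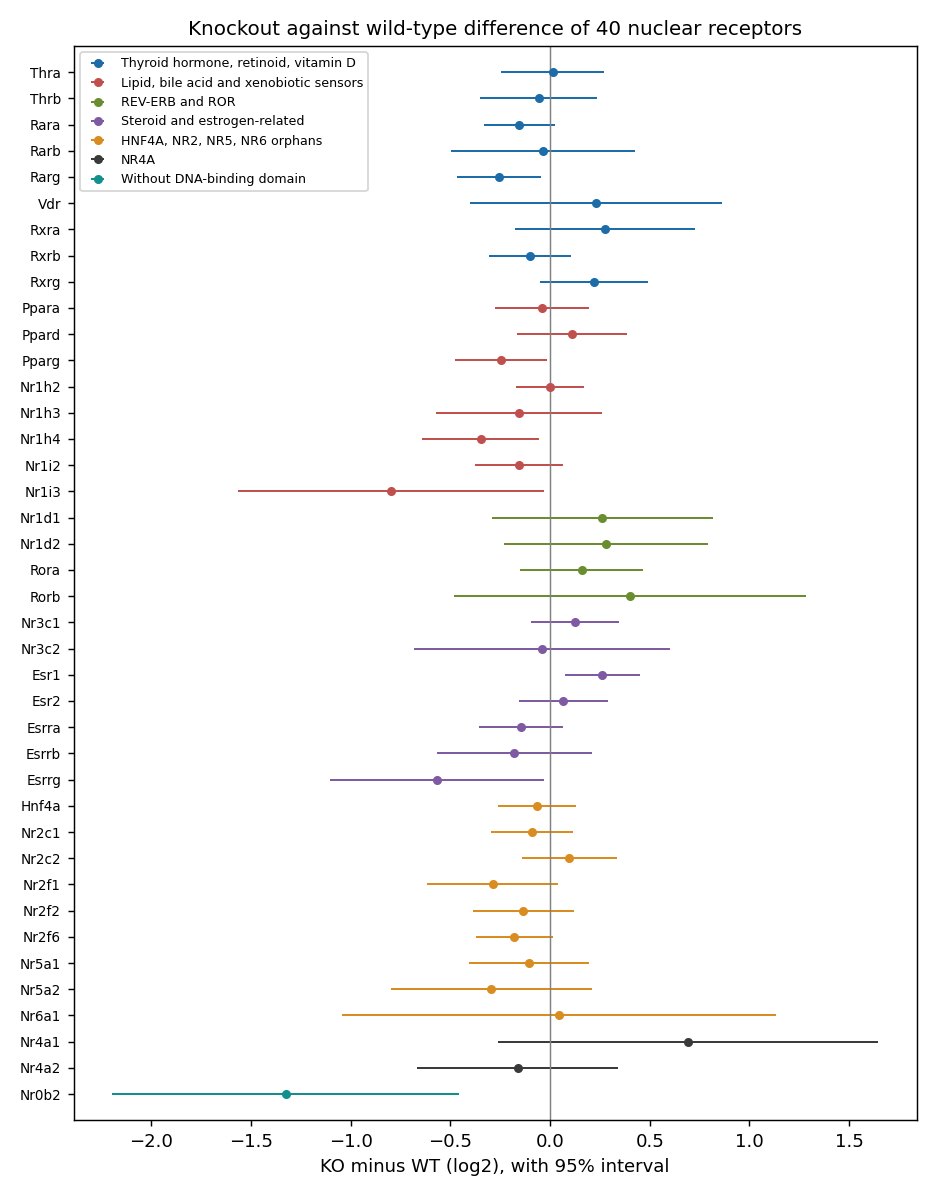
Difference in level between KO and WT livers (log2, points) for the 40 tested receptors, grouped by role, with 95% intervals of the limma fit on 8 arrays. Most points lie within 0.3 of 0, and the widest departures are Nr0b2 at -1.33, Nr1i3 at -0.80 and Nr4a1 at 0.69.

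Among receptors for thyroid hormone, retinoids and vitamin D, 5 of 9 had lower means in KO livers, and their median difference was -0.04. Rarg, one of the retinoic acid receptors (probe on mm9 chr15:102065371-102065430, minus strand), had levels of 0.38, 0.74, 0.67 and 0.58 on the KO arrays and 0.94, 0.79, 0.84 and 0.81 on the WT arrays. Every KO array lay below every WT array, with KO 2 only just under WT 2. The difference was -0.26 (SE 0.09, unadjusted p = 0.0222, limma adjusted p = 0.288) and -0.27 with 6 arrays (adjusted p = 0.709). Rara, another retinoic acid receptor, differed by -0.15, but its other kept probe by 0.05. Rarb, a retinoic acid receptor that is itself induced by retinoic acid, differed by -0.04.

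Thra and Thrb, the receptors for thyroid hormone, differed by 0.01 and -0.06. The spans of Thra and Nr1d1 overlap on chromosome 11, and the array annotation places their probes on opposite strands. The shared partners of many receptors, Rxra, Rxrb and Rxrg, differed by 0.28, -0.10 and 0.22, all with intervals that include 0. For Rxra and Rxrg the other kept probe differed by -0.06 and -0.62, so neither direction held across probes. Vdr, the vitamin D receptor, differed by 0.23, and that value rested on WT 1, which stood at -3.00 while the other 7 arrays lay between -1.95 and -1.67. Without WT 1 the difference of Vdr was -0.08.

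The sensors of lipids, bile acids and foreign compounds held 3 of the 7 receptors with an unadjusted p under 0.05. Of the 8 sensors, 6 had lower means in KO livers, and their median difference was -0.16. Nr1h4 encodes FXR, the receptor for bile acids, which restrains their synthesis and drives their export. Its levels (probe on mm9 chr10:88917222-88917281, minus strand) were 3.34, 3.11, 2.83 and 2.97 on the KO arrays and 3.62, 3.27, 3.47 and 3.28 on the WT arrays. KO 1 lay above WT 2 and WT 4, so the groups overlapped, and the remaining 3 KO arrays were below all WT arrays. The difference was -0.35 (95% interval -0.64 to -0.05, unadjusted p = 0.0253, limma adjusted p = 0.300), with -0.36 from 6 arrays (adjusted p = 0.703). Leaving out KO 3 and KO 4 gave -0.18 for Nr1h4.

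Nr1i3 encodes CAR, a receptor that switches on genes for the breakdown of drugs and of bilirubin. Its levels (probe on mm9 chr1:173148765-173148824, plus strand) were 0.48, 0.39, -0.02 and 0.01 on the KO arrays and 2.08, 0.41, 0.95 and 0.61 on the WT arrays. WT 1 was far above the other 7 arrays, and WT 2 lay below KO 1. The difference of -0.80 (SE 0.34, unadjusted p = 0.0434, limma adjusted p = 0.362) was -0.44 without WT 1 and -0.86 with 6 arrays (adjusted p = 0.709). The other kept Nr1i3 probe differed by -0.70. Nr1i2, which encodes PXR, the other receptor for foreign compounds, differed by -0.16 (95% interval -0.38 to 0.07).

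Pparg, the fat-storage regulator of adipose tissue (probe on mm9 chr6:115440213-115440272, plus strand), had levels of 0.25, 0.37, 0.16 and 0.20 on the KO arrays and 0.76, 0.41, 0.42 and 0.39 on the WT arrays. The groups did not overlap, but only a small gap separated KO 2 from WT 4, and WT 1 stood well above the rest. Its difference was -0.25 (SE 0.10, unadjusted p = 0.0384, limma adjusted p = 0.349), and -0.27 with 6 arrays (adjusted p = 0.716). Without WT 1 Pparg differed by -0.16.

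Ppara, the fatty acid sensor that drives fat oxidation in the fasting liver, stood at 5.13, 4.99, 4.98 and 4.97 on the KO arrays and at 5.01, 5.33, 4.88 and 5.01 on the WT arrays. These values interleave, with a difference of -0.04 (95% interval -0.27 to 0.20), and the other kept Ppara probes differed by -0.04 and 0.04. Ppard, a widely expressed relative, differed by 0.11. The oxysterol receptors LXR-beta (Nr1h2) and LXR-alpha (Nr1h3) differed by 0.00 and -0.16. Nr1h3 was highest in WT 1 at 3.47, and without WT 1 its difference was 0.03.

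**Figure D2:**
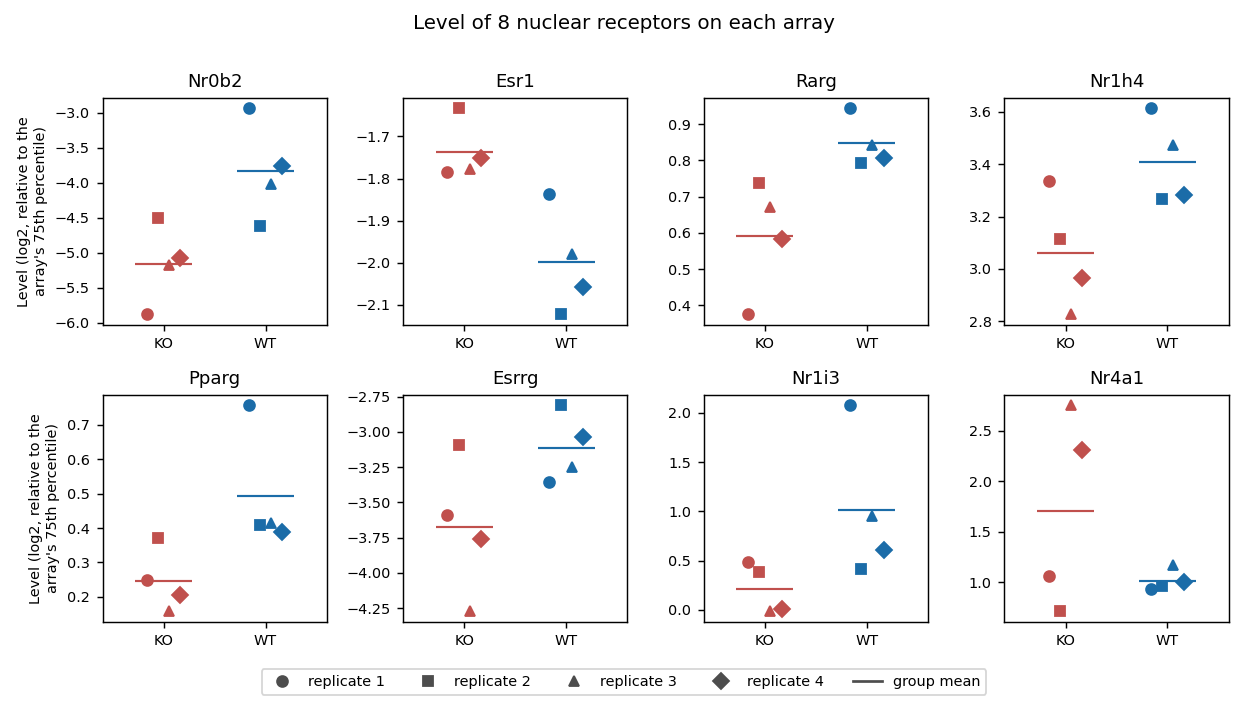
Level (log2 relative to the array's 75th percentile) of the 7 receptors with an unadjusted limma p under 0.05 and of Nr4a1 on each array, with KO left of WT and a line at each group mean. Esr1, Rarg and Pparg show no overlap of the groups, WT 1 is high for Nr0b2, Pparg and Nr1i3, and KO 3 and KO 4 are high for Nr4a1.

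The receptors of the circadian clock all had higher means in KO livers, 4 of 4, with a median difference of 0.27 and 0 with an unadjusted p under 0.05. Nr1d1 and Nr1d2 encode REV-ERB-alpha and REV-ERB-beta, haem-binding repressors of the clock gene Arntl. Nr1d1 stood at -2.72, -3.29, -3.56 and -3.57 on the KO arrays and at -4.01, -3.71, -3.11 and -3.36 on the WT arrays. Nr1d2 stood at 0.81, 0.67, 0.17 and 0.21 on the KO arrays and at -0.36, 0.42, 0.53 and 0.14 on the WT arrays. In both genes KO 1 was highest and WT 1 lowest, and the remaining arrays overlapped.

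The differences were 0.26 for Nr1d1 and 0.28 for Nr1d2, with limma adjusted p = 0.649 and 0.598. Without WT 1 they were 0.11 for Nr1d1 and 0.10 for Nr1d2. With the Xist level as a covariate both changed sign, to -0.13 for Nr1d1 and -0.12 for Nr1d2. Among the KO arrays only KO 3, at -6.80, had a Xist level near those of the WT arrays (-7.78 to -6.89). Fits with this covariate therefore lean on KO 3. Rora, an activator of Arntl, differed by 0.16, and its other kept probe by -0.14. Rorb differed by 0.40 with a wide interval (-0.48 to 1.28), on a probe that was near background.

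Among the steroid and estrogen-related receptors the only higher mean with an unadjusted p under 0.05 was that of Esr1. Esr1, estrogen receptor alpha, is the main estrogen receptor of liver. Its levels (probe on mm9 chr10:5489352-5489411) were -1.79, -1.63, -1.78 and -1.75 on the KO arrays and -1.84, -2.12, -1.98 and -2.06 on the WT arrays. All KO arrays lay above all WT arrays, with WT 1 closest to them. The difference was 0.26 (SE 0.08, unadjusted p = 0.0119, limma adjusted p = 0.233) and 0.25 with 6 arrays (adjusted p = 0.705). The other kept Esr1 probes differed by 0.61 and 0.50, in the same direction. Esr2, estrogen receptor beta, differed by 0.07.

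Esrrg, an estrogen-related receptor that acts on mitochondrial and gluconeogenic genes without a known natural hormone, pointed the other way. Its levels (probe on mm9 chr1:190038384-190038443, plus strand) were -3.59, -3.09, -4.27 and -3.76 on the KO arrays and -3.35, -2.81, -3.25 and -3.03 on the WT arrays. KO 2 fell within the WT range, whereas the rest of the KO arrays lay below it. The difference was -0.57 (SE 0.24, unadjusted p = 0.0414, limma adjusted p = 0.357), and -0.51 with 6 arrays (adjusted p = 0.741). Without KO 3 and KO 4 Esrrg differed by -0.23. Esrra and Esrrb, its relatives, differed by -0.15 and -0.18, and their groups overlapped.

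Nr3c1, the glucocorticoid receptor, stood at 3.80, 3.57, 3.93 and 3.85 on the KO arrays and at 3.52, 3.72, 3.76 and 3.64 on the WT arrays. KO 2 lay among the WT arrays and the remaining KO arrays above them, and the difference was 0.13 (95% interval -0.10 to 0.35). The other kept Nr3c1 probe differed by 0.47, in the same direction (SE 0.20, unadjusted p = 0.0422 in a limma fit of all kept probes). Nr3c2 differed by -0.04 with an interval from -0.68 to 0.60.

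Hnf4a, which maintains the hepatocyte programme and binds DNA as a pair with itself, differed little between genotypes. It stood at 6.33, 6.43, 6.29 and 6.33 on the KO arrays and at 6.53, 6.53, 6.27 and 6.31 on the WT arrays. WT 1 and WT 2 were a little above the other 6 arrays, and the difference was -0.07 (95% interval -0.26 to 0.13, limma adjusted p = 0.751). Of the 9 tested receptors of its group, 7 had lower means in KO livers, with a median difference of -0.11 and 0 with an unadjusted p under 0.05. Nr5a2, which encodes LRH-1, an activator of bile acid synthesis genes, differed by -0.29. WT 1 stood at 3.29 for Nr5a2 and the other 7 arrays at 2.16 to 2.46. Without WT 1 Nr5a2 differed by -0.05, and its other kept probe differed by 0.02.

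The COUP-TF receptors Nr2f1, Nr2f2 and Nr2f6, which often repress the targets of other receptors, differed by -0.29, -0.13 and -0.18. In Nr2f1 and Nr2f2 the lowest value belonged to KO 3, at -0.36 and 0.30. The testicular receptors Nr2c1 and Nr2c2 differed by -0.09 and 0.10. Nr5a1, the steroidogenic factor of adrenal and gonad, differed by -0.11, and Nr6a1 by 0.04 with an interval from -1.04 to 1.13.

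Nr0b2 had the smallest p of the family. It encodes SHP, a receptor without a DNA-binding domain that is induced by FXR and represses bile acid synthesis genes by binding LRH-1 and HNF4A. Its levels (probe on mm9 chr4:133109694-133109753, plus strand) were -5.88, -4.50, -5.18 and -5.08 on the KO arrays and -2.93, -4.61, -4.02 and -3.77 on the WT arrays. KO 2 lay just above WT 2, the other KO arrays were below all WT arrays, and WT 1 was highest. The means were -5.16 ± 0.56 in KO livers and -3.83 ± 0.70 in WT livers (SD, n = 4 arrays each). The probe was well above background on 2 KO and 4 WT arrays, so the KO mean rests partly on signal at background, and no fold is given.

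The difference of Nr0b2 was -1.33 (95% interval -2.20 to -0.45, unadjusted p = 0.00765, limma adjusted p = 0.204). With 6 arrays it was -1.33 (unadjusted p = 0.0335, limma adjusted p = 0.647). Without WT 1 it was -1.03. With normexp background correction, which compresses dim signals, Nr0b2 differed by -0.47 (limma adjusted p = 0.0764).

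The 250 bases before the annotated start of Nr0b2 are printed because the motif TCAAGG occurs there more than once. TCAAGG is only the core of the extended half-site to which LRH-1 and the estrogen-related receptors bind. The sequence is RefSeq's for GRCm38.p6, chr4:133553126-133553375, plus strand, and capitals mark the matches. They begin 68 and 35 bases before the start.
Nr0b2: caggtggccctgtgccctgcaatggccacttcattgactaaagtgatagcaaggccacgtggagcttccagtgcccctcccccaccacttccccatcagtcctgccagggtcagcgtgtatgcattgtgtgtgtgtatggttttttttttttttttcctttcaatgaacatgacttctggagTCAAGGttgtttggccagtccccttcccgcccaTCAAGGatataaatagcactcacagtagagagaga

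On either strand, 12.5% of 32851 promoter windows of that length held TCAAGG at least once, and 0.922% held 2 or more copies. Of the 61 windows found for 40 of the 44 receptors, 6 held it. The plain receptor half-site AGGTCA was present in 11 of the 61 receptor windows and in 14.0% of all windows. The Nr0b2 window was not among the 11, so neither of its TCAAGG matches runs on into AGGTCA. These matches describe letters in a window, and binding was not measured.

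Among the NR4A receptors, which act without a hormone and are switched on within minutes by growth and stress signals, Nr4a1 showed a split within the KO group. Nr4a1 (NUR77, probe on mm9 chr15:101105071-101105130, plus strand) stood at 1.06, 0.71, 2.75 and 2.31 on the KO arrays and at 0.93, 0.96, 1.17 and 1.00 on the WT arrays. KO 3 and KO 4 were far above all others, while KO 1 and KO 2 lay around the WT arrays. The mean difference of 0.69 had an interval from -0.26 to 1.65 (limma adjusted p = 0.494). It was 0.49 with 6 arrays and -0.13 without KO 3 and KO 4. With the Xist level as a covariate Nr4a1 differed by 2.01 (unadjusted p = 0.00153, limma adjusted p = 0.156). That fit leans on KO 3, the highest array for Nr4a1, because only KO 3 had a Xist level near those of the WT arrays.

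The immediate-early genes were set beside Nr4a1 on the same arrays. The mean level of 14 measured genes out of 15 listed was -0.08, -0.25, 1.29 and 1.01 on the KO arrays and -0.64, -0.28, 0.10 and -0.08 on the WT arrays. KO 3 and KO 4 stood above the other 6 arrays in this mean and in 11 of the 14 genes, but not in Btg2, Klf2 or Klf4, and 0 of the 14 were called between genotypes. Fos, a subunit of the AP-1 factor, stood at -0.36, -0.74, 1.25 and 0.84 on the KO arrays and at -1.89, -0.99, -0.27 and -0.61 on the WT arrays. Ier3 alone of the 14 was higher on every KO array than on any WT array. The hypoxia list of 12 genes had means of 2.19, 1.93, 2.75 and 2.56 on the KO arrays and 1.66 to 2.01 on the WT arrays. In 3 of the 12, Slc2a1, Pdk1 and Kdm3a, all KO arrays lay above all WT arrays, where 4.72% of all genes did so. Slc2a1 stood at 5.42 to 5.55 on the KO arrays and at 4.18 to 5.11 on the WT arrays. None of the 12 was called. The part of both lists in the Nr4a1 values was not tested. Nr4a2, a relative known from dopamine neurons, stood at -2.65, -2.79, -2.02 and -2.34 on the KO arrays and at -2.75, -2.39, -1.88 and -2.12 on the WT arrays. KO 3 and KO 4 were the highest KO arrays there too, but lay within the WT range, and the difference was -0.16.

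The Nr4a1 promoter window is printed because it carries the CRE-like motif TGCGTCA more often than any other window in the table. It is RefSeq's GRCm38.p6 sequence of chr15:101266596-101266845, plus strand, with the matches in capitals. They begin 235, 215, 71 and 42 bases before the start.
Nr4a1: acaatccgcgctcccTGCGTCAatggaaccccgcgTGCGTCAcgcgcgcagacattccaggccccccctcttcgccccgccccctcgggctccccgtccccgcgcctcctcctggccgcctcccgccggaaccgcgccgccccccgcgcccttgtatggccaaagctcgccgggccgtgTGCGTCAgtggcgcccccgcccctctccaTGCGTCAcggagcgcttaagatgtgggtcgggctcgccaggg

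Of the 32851 windows, 1.75% held TGCGTCA on either strand at least once, and only 1 held 3 or more copies, or 0.00304%. No other receptor window held it. The motif was picked by hand and not by a search over all motifs, so this rarity is a description and not a test. Whether a CRE-binding factor was present there was not measured.

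Single arrays weighed on many receptors. WT 1 was the highest or lowest of the WT arrays for 31 of the 40 receptors. It was more than 0.5 from the median of the other WT arrays for 9 of them, namely Vdr, Nr1h3, Nr1i3, Nr1d1, Nr1d2, Rorb, Nr5a2, Nr4a2 and Nr0b2. Among the KO arrays, KO 3 was the highest or lowest for 29 receptors, KO 2 for 23, KO 1 for 21 and KO 4 for 7. WT 4, like KO 4, was seldom extreme, at 8 receptors.

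**Figure D3:**
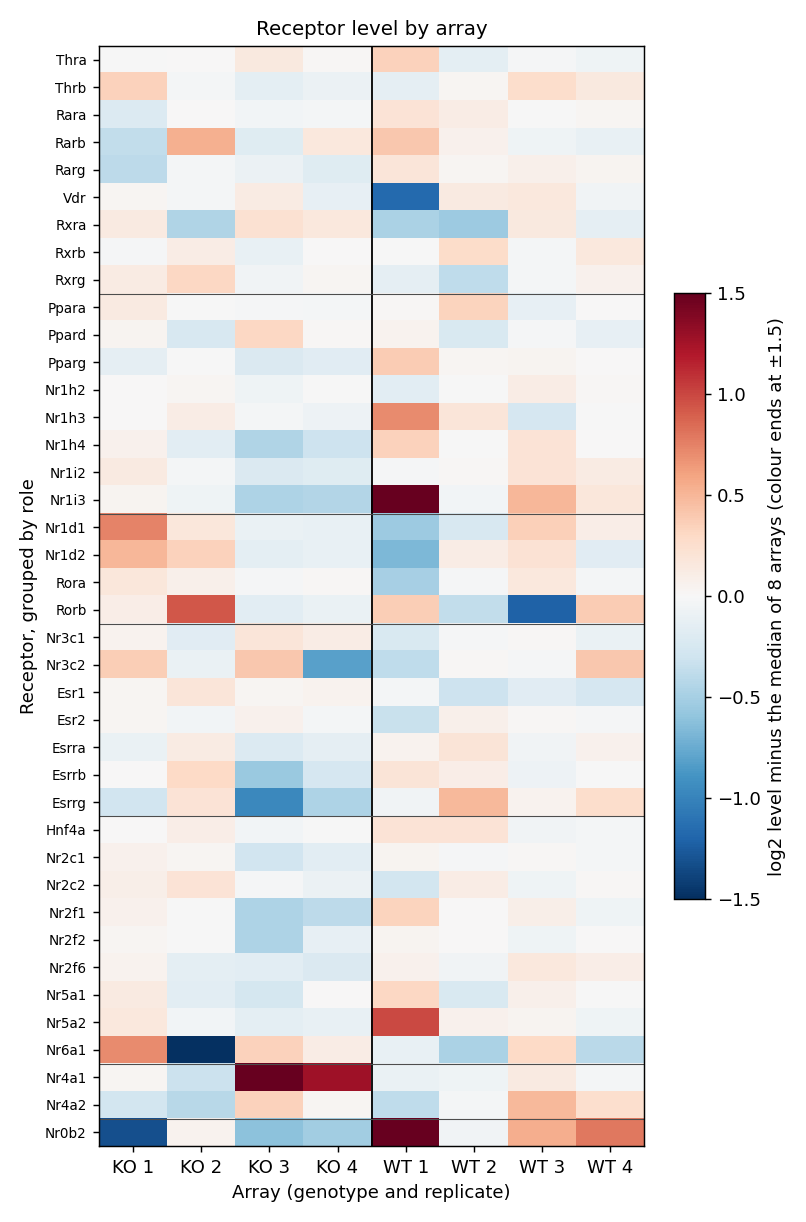
Level of each of the 40 receptors on each array as the difference from its median over 8 arrays (log2, colour, with KO arrays left of WT arrays). WT 1 shows the most strong departures, with Nr1i3 and Nr5a2 high and Vdr low, and KO 3 and KO 4 share the high Nr4a1.

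The partners of the receptors were next compared. None of the 60 measured coactivators, corepressors and genes of ligand supply, out of 63 listed, passed at a limma adjusted p under 0.05, and 10 had an unadjusted p under 0.05, 6 with lower and 4 with higher means in KO livers. That is 10 of 60, where 13.3% of all genes had such a p. Nrip1, a corepressor of many receptors in metabolic tissue, stood at 1.42, 1.56, 1.64 and 1.56 on the KO arrays and at 1.25, 1.25, 1.31 and 1.26 on the WT arrays. Lcor, a ligand-dependent corepressor, stood at 1.34, 1.21, 1.19 and 1.17 on the KO arrays and at 0.95, 0.92, 0.91 and 0.91 on the WT arrays. Both were higher on every KO array, with differences of 0.28 for Nrip1 and 0.30 for Lcor (limma adjusted p = 0.150 and 0.114). With 6 arrays the adjusted p was 0.638 for Nrip1 and 0.578 for Lcor.

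Of the 19 coactivators, 10 had lower means, and the median difference was -0.01. Ppargc1b, a coactivator of PPAR and estrogen-related receptors, differed by -0.29 (unadjusted p = 0.0414, limma adjusted p = 0.357) and did not overlap between groups. Ppargc1a, its relative in gluconeogenesis, differed by -0.05. Among ligand genes, Aldh1a1, which makes retinoic acid from retinal, stood at -0.39, 0.17, -0.30 and -0.07 on the KO arrays and at 0.51, 0.65, 0.33 and 0.52 on the WT arrays. Every KO value lay below every WT value, and the difference was -0.65 (SE 0.13, limma adjusted p = 0.103, and 0.525 with 6 arrays). Fabp1, which carries fatty acids to PPAR-alpha and is one of its targets, differed by -0.35 (adjusted p = 0.120 by limma, and 0.554 with 6 arrays).

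Target genes named in textbooks for each receptor were set beside the receptors. Of 102 listed genes 97 were measured, and 2 passed as lower and 0 as higher in KO livers, at a threshold of 0.05 on the limma adjusted p. With 6 arrays this was 1, Abcg5. At an unadjusted limma p under 0.05 there were 22 lower and 7 higher targets, where 6.48% and 6.84% of all genes were lower and higher. The median difference of all targets was -0.03.

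The LXR targets held both members of the sterol exporter that moves cholesterol into bile. Abcg5 stood at 0.34, -0.01, 0.39 and 0.27 on the KO arrays and at 2.00, 2.16, 1.81 and 1.93 on the WT arrays. Abcg8 stood at -3.44, -4.04, -3.67 and -3.76 on the KO arrays and at -2.47, -2.19, -2.90 and -2.48 on the WT arrays. Neither gene's groups overlapped. Abcg5 fell by 1.73 on the log2 scale (limma adjusted p = 0.000655, and 0.0477 with 6 arrays). Abcg8 fell by 1.22 with 8 arrays (limma adjusted p = 0.0375) and did not pass with 6 (adjusted p = 0.435). Of the other 11 LXR targets, 10 had higher means in KO livers, so that the list's median was 0.06. Lpcat3, a phospholipid-remodelling enzyme, differed by 0.43 (limma adjusted p = 0.198).

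The FXR list, which pools genes that FXR induces with genes that it represses, had lower means for 9 of 11 genes and a median difference of -0.25. Its counts and median therefore give no single direction of FXR activity. Of the 11, 5 had an unadjusted p under 0.05, all lower, where 6.48% of all genes were lower at that p, and none passed the adjusted threshold. Abcb11, the bile salt export pump, stood at 3.41, 3.53, 3.64 and 3.60 on the KO arrays and at 4.28, 3.83, 4.09 and 3.85 on the WT arrays, without overlap. It differed by -0.47 (limma adjusted p = 0.153, and 0.534 with 6 arrays). Cyp7a1, the rate-limiting enzyme of bile acid synthesis, which FXR and SHP repress, stood at 3.07, 3.03, 2.62 and 2.73 on the KO arrays and at 3.96, 3.20, 3.36 and 3.28 on the WT arrays. All KO arrays were lower here too, and the difference was -0.59 (limma adjusted p = 0.228, and 0.650 with 6 arrays). Baat and Slc27a5, which conjugate bile acids, differed by -0.83 and -0.32.

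The HNF4A list had lower means for 8 of 10 genes, a median of -0.12 and 0 genes called. Apoc3, an apolipoprotein of triglyceride-rich particles, differed by -0.71, and by -0.49 without WT 1, which stood at 5.61. Cyp27a1, a sterol hydroxylase of bile acid synthesis, differed by -0.33 (limma adjusted p = 0.359), and Ttr, the carrier of thyroid hormone and retinol in blood, by 0.20 (limma adjusted p = 0.308).

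Among 15 glucocorticoid receptor targets, 10 had lower means and the median was -0.04, yet a few genes differed widely. Tat, which breaks down tyrosine, stood at 4.88, 5.39, 4.63 and 4.84 on the KO arrays and at 6.13, 6.23, 5.80 and 5.93 on the WT arrays. The difference was -1.09 (limma adjusted p = 0.0592, and 0.484 with 6 arrays). Tdo2, which breaks down tryptophan, differed by -1.52 (limma adjusted p = 0.0821, and 0.521 with 6 arrays), and Tsc22d3, a glucocorticoid-induced leucine zipper protein, by -0.37. The groups of all 3 genes did not overlap. Fkbp5, a classic glucocorticoid target, differed by -0.01.

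The PPAR-alpha list had lower means for 9 of 15 genes and a median of -0.12, with members on both sides of 0. Cyp4a14, a fatty acid hydroxylase, stood at 3.85, 4.85, 3.75 and 4.23 on the KO arrays and at 5.52, 5.73, 5.22 and 5.48 on the WT arrays. Cyp4a14 differed by -1.32 (limma adjusted p = 0.0780, and 0.516 with 6 arrays). The fasting hormone Fgf21, which was well above background on 3 KO and 4 WT arrays, differed by -1.77 (limma adjusted p = 0.224). Plin2, a coat protein of lipid droplets, differed by 0.58, in the other direction.

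Of 12 measured CAR and PXR targets, 9 had lower means, with a median of -0.18. Slco1a4, an organic anion transporter, differed by -0.45 and Ces2a, a carboxylesterase, by -0.28, both without overlap (limma adjusted p = 0.202 and 0.252). Cyp2b10, a classic CAR target, differed by -0.52 and Cyp3a11, a classic PXR target, by -0.44, and neither passed. Gadd45b differed by 0.43.

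The remaining lists had no gene called. The thyroid hormone list had a median of 0.17, and Thrsp and Me1, lipogenic genes, stood far above the other arrays on KO 3 and KO 4, at 0.68 and 0.35 for Thrsp and at 2.25 and 1.89 for Me1. The REV-ERB and ROR list had a median of 0.19, with Insig2, a brake on sterol synthesis, at -0.54 (limma adjusted p = 0.146, and 0.573 with 6 arrays). Cry1 and Clock, parts of the circadian clock, differed by 0.50 and 0.19. The retinoic acid receptor and estrogen-related receptor lists had medians of 0.06 and 0.01.

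**Figure D4:**
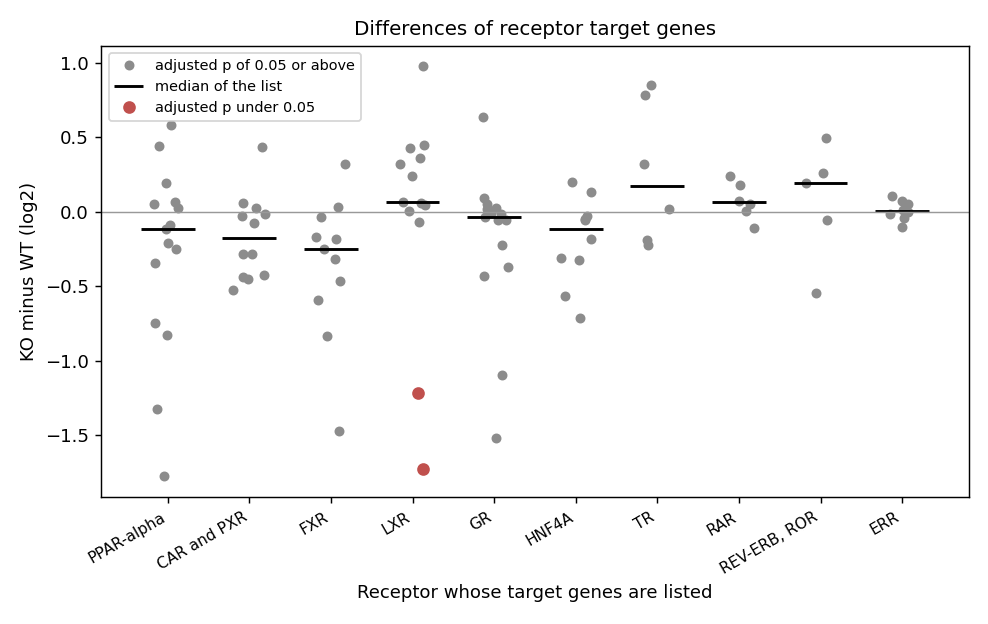
Difference between KO and WT livers (log2) of the measured target genes of each receptor, 1 point per gene, with a line at the median of the list. Red points passed at a limma adjusted p under 0.05 with 8 arrays, namely Abcg5 and Abcg8 in the LXR list.

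Other cell types also differed between the arrays. Stellate cell and fibroblast markers, 10 of 10 measured, had lower means in all 10 and log2 summed levels of 7.06 to 7.28 on KO arrays and 7.42 to 7.58 on WT arrays. Stellate cells are known for storing retinoids, and their part in the values of Rarg and Pparg was not tested. Skeletal muscle markers, 5 of 7 kept, summed to -1.67 to -1.31 on KO arrays and to -0.56 to 1.13 on WT arrays, with 4 of the 5 genes lower without overlap. Of these Myl1, a myosin light chain, passed as lower with 8 arrays (limma adjusted p = 0.0281) and not with 6 (adjusted p = 0.373). Lymphocyte markers, 7 of 8 kept, had a mean level of 0.00 to 0.06 on KO arrays and 0.08 to 0.52 on WT arrays, while their log2 summed levels of 4.19 to 4.31 on KO arrays and 4.05 to 4.66 on WT arrays overlapped. Ms4a1, the B-cell antigen CD20, passed as lower with 8 arrays (limma adjusted p = 0.0281) and not with 6 (adjusted p = 0.390). The part of both cell types in the receptor values was not tested. Macrophage markers, 9 of 9, summed to 7.76 to 7.97 on KO arrays and 7.74 to 8.17 on WT arrays.

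Pancreas markers, 7 of 11 kept, summed to 3.79 to 4.48 on KO arrays and to 4.44 to 6.99 on WT arrays, highest in WT 3 and WT 4. For Nr5a2, a receptor also known from pancreas, the KO arrays stood at 2.16 to 2.46 and WT 3 and WT 4 at 2.35 and 2.24. Erythroid markers, 7 of 8 kept, summed to 10.61 to 10.74 on KO arrays and to 10.28 to 10.83 on WT arrays, lowest in WT 1. Clock genes, 12 of 15 measured, had 8 higher and 4 lower means in KO livers, none with an unadjusted p under 0.05.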

How the data were processed

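The authors deposited Agilent Feature Extraction 10.10 output, per the submitters' processing notes and file headers, giving spot intensity on a linear scale, 62976 spots per array. The authors also deposited a table of log2 values for 27084 probes, each column of which tracked log2 of that array's median signal (r from 0.99995 to 0.999994) without centring of genes, with medians of 8.84 to 8.86. It served as an alternative.

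Main values were log2 of gProcessedSignal minus the 75th percentile of all non-control spots on that array. Spots flagged as outliers were left out and 87 probes lost, no probe was saturated, and spots of 1 probe were averaged. A probe was kept if well above background on at least 4 of 8 arrays, and the kept probe with the highest mean represented its gene. Names were updated by accession for 27235 of 55681 probes and by synonym for 565 from a RefSeq table of GRCm38.p6. Probe coordinates are those of the array files (mm9), and exon positions were not used here.

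Genotypes were compared by limma 3.58.1 (R 4.3.3; lmFit, eBayes) on 23540 genes, two-sided, without covariates, with Benjamini-Hochberg adjustment over all genes and a threshold of 0.05. Every receptor is accounted for. Array values are printed for receptors with an unadjusted p under 0.05 and for a set of main liver receptors, and otherwise the 3 genes of each list with the smallest p are named, plus Ppargc1a and Mirg. Genes named beyond these (Plin2, Fkbp5, Cyp2b10, Cyp3a11, Btg2, Klf2, Klf4, Myl1, Ms4a1) were chosen after their values were seen. Before counting, 2 genes were dropped from the target lists, and they are not reported here. The receptors, the lists and the alternatives were chosen with earlier results of these data known. The fit was tested on simulated data with independent arrays and normal noise. Recovery was required there only for differences larger than those of most receptors. The simulation therefore does not speak to small differences or to arrays that are not independent. Replicate numbers matched the slide row on all 8 arrays, and KO and WT arrays of the same number correlated at -0.11, -0.03, -0.01 and 0.07 in their deviations, so the numbers were not taken to pair samples. The number of arrays limits the precision.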

Additional observations from a re-analysis of the deposited data

Results flagged for a closer look

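Dixon's criterion for 1 array far from the other 3 of its genotype picked 12 of the 176 groups of 4 arrays checked, and chance picks about 1 in 20. Among the receptors it picked 6 of 80 groups. WT 1 accounted for 3 of these: Vdr stood at -3.00 there against -1.88 to -1.67 on the other WT arrays, Pparg at 0.76 against 0.39 to 0.42, and Nr5a2 at 3.29 against 2.24 to 2.37. The remaining 3 were KO arrays. Thra stood at 2.61 in KO 3, Rxra at -1.32 in KO 2, and Ppara at 5.13 in KO 1.

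Outside the receptors, WT 1 stood apart in Ppargc1a (3.16, below the other WT arrays), in Ppargc1b (-2.41, above them), in Tgm2 (4.61, below) and in Apoc3 (5.61, above). Ep300 stood at 0.20 in KO 4 and Nrip1 at 1.31 in WT 3. What set WT 1 apart was not tested.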

How the results depend on the processing

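No receptor was called under any of the alternative settings in which it was tested (20 for Nr0b2, Rorb and Nr6a1, 21 for Rarg, Nr3c2 and Nr4a1, and 22 for the others), and 19 of the 40 never changed sign, among them Nr0b2, Esr1, Rarg, Nr1h4, Pparg, Esrrg and Nr1i3. The smallest limma adjusted p of a receptor was 0.0764, for Nr0b2 with normexp. Replicate numbers did not pair the arrays. With the replicate number as a block, 6 receptors (15%) had an unadjusted p under 0.05, against 12.4% of all genes. In that fit 1 target was called lower, and over all genes 17 were lower and 2 higher, against 42 and 9 without the block. Receptors with an unadjusted p under 0.05 (7) numbered 1 (2.5%) without replicate 4 of both groups, where 7.33% of all genes had such a p. They numbered 2 (5%) without KO 3 and KO 4, against 7.74% of all genes. When 1 array was left out they numbered 3 to 10 (7.5% to 25%), against 9.13% to 15.2% of all genes. Receptors whose groups did not overlap (3) numbered 1 in the deposited table, 5 without KO 3 and KO 4, 10 without WT 3 and WT 4, and 3 to 8 when 1 array was left out. Fewer arrays make separation easier. The share of all genes without overlap was not counted in these settings, so these counts cannot be read as high or low for receptors. Partners called lower (0) numbered 1 with normexp, with normexp and quantile together, and with a trended robust variance. Targets called lower (2) numbered 4 with normexp, and 5 with normexp and quantile together, in the deposited table and with the trended robust variance. They numbered 1 with Xist as a covariate and with no filter on dim probes, 1 to 3 when 1 array was left out, and 1 without replicate 4 of both groups, without KO 3 and KO 4, or without WT 3 and WT 4. Over all genes, normexp gave 118 lower and 14 higher, the deposited values 122 and 20, the trended robust variance 119 and 30, normexp and quantile together 114 and 24, quantile alone 66 and 14, no filter 19 and 0, Xist as a covariate 15 and 3, Ddx3y as a covariate 78 and 13, no KO 3 and KO 4 9 and 3, no WT 3 and WT 4 11 and 2, and leaving out 1 array 14 to 66 and 0 to 24. The cause of these shifts was not tested. Abcg5 passed in every one of these settings. Abcg8 passed without WT 3 only, among the fits that left out arrays. No called value changed direction. Receptors near background (Nr0b2, Rorb, Nr3c2 and Nr6a1) are limited by signal, and normexp gave Nr0b2 a difference of -0.47.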
